A study of Mus musculus with 62 samples.

Results

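The cholesterol genes followed here are 31 transcripts of mouse liver that make, sense, move and export cholesterol. They were taken by gene symbol from a table of 47643 genes, and all 31 were found. Each reached 1 TPM (transcripts per 1e+06, a level corrected for transcript length and library size) in all 62 libraries, so no member was lost to the filter that left 12160 genes for testing. The 62 livers came from female mice with an age label of 2 months. The CAC arm received cachectic melanoma cells, the NCAC arm received melanoma cells described as non-cachectic, and the Con arm was mock injected. Livers were collected at 2, 4, 6 and 8 weeks, with 5 animals a group except for 7 CAC animals at 8 weeks. The labels name neither the melanoma lines nor how many clones were used. They give C57BL/6J mice, while the design text gives the nude strain NCI Ath/nude, and the RNA protocol mentions lung carcinoma cells that form no group here, so the strain of these livers is unsettled.

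Cholesterol is built from acetyl-CoA through mevalonate, isoprenoids, squalene and a chain of sterols. Its supply is sensed in the endoplasmic reticulum: when sterol is scarce, SCAP carries the transcription factor SREBP2, encoded by Srebf2, to the Golgi for activation, and when sterol is plentiful, INSIG proteins hold SCAP back. In liver, surplus cholesterol is esterified, loaded on lipoproteins, turned into bile acids or pumped into bile by the paired half-transporters ABCG5 and ABCG8.

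Promoters of 5 members on which the results turn are given first, because SREBP2 acts at such regions together with factors that bind CCAAT boxes. They are RefSeq sequences of build GRCm38.p6, each with 250 bases before the annotated start and 50 from it, 5′ to 3′ along the gene's own strand. Capitals mark matches, on either strand, to the sterol regulatory element core TCACNCCAC or to CCAAT (read as ATTGG on the other strand). The 2 motifs did not overlap in these windows. Hmgcs1, which makes HMG-CoA, lies at chr13:119690101-119690400 on the plus strand. Sc5d, a late sterol desaturase, is at chr9:42264251-42264550 on the minus strand. Insig1 is at chr5:28071162-28071461, Scap at chr9:110333038-110333337 and Abcg8 at chr17:84682871-84683170, all on the plus strand.
Hmgcs1: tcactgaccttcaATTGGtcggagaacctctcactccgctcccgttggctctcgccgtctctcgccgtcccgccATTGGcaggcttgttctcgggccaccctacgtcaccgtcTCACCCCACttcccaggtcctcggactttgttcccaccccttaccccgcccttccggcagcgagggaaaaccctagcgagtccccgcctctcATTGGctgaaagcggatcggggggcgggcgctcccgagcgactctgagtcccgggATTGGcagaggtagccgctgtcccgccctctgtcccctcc
Sc5d: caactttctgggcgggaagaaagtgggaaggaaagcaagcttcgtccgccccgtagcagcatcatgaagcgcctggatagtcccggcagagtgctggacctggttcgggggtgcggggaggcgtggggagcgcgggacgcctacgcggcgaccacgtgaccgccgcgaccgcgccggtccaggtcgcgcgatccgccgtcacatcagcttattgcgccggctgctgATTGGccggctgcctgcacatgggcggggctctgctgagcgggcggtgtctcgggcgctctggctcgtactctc
Insig1: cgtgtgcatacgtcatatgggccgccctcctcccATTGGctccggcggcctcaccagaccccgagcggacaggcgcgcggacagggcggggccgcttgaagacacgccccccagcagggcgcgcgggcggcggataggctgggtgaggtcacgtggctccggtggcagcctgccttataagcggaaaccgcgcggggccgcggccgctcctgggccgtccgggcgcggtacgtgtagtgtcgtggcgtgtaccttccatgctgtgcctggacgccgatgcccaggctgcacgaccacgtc
Scap: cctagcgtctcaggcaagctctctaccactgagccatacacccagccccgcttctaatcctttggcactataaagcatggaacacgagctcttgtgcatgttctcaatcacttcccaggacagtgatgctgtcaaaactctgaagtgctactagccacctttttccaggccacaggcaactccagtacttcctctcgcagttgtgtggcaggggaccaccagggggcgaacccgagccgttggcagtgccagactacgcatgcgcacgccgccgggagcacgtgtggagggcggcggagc
Abcg8: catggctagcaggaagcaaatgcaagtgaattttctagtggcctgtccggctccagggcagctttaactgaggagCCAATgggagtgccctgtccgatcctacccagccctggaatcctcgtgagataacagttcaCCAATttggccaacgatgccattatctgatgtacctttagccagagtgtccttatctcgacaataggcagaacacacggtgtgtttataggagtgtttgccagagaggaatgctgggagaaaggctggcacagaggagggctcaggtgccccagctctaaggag

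The Hmgcs1 window held 1 sterol element core, starting 137 bases before the start, and 4 CCAAT matches. Sc5d and Insig1 had 1 CCAAT match each and no core, and the Scap window had neither. The Abcg8 window belongs to 1 of its 2 annotated starts and also contains the start of Abcg5, which runs the other way 110 bases off. Windows were on hand for 26 of the 31 members and not for Fdps, Fdft1, Sqle, Stard4 and Soat2. CCAAT was present in 22 of those 26 members, against 42.9% of the 9077 tested genes with a window. By window it was present in 22 of the members' 33, against 37.4% of all 32851 windows. The sterol element core was present in 1 of the 26, Hmgcs1, against 1.52% of tested genes. It was in 1 of the 33 member windows, against 1.24% of all windows. These matches describe letters in a window and do not show binding. A missing match does not show that a gene lacks such an element, since only the core given above was sought, within these windows.

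The 8 hepatocyte markers summed to between 113624 and 154291 TPM in every 8-week liver. The 6 melanocyte genes summed to 11.05 to 24.1 TPM in CAC livers, 9.27 to 24.1 TPM in NCAC livers and 7.33 to 14.0 TPM in Con livers of 8 weeks. Of these 6, Mlana and Tyrp1 were at 0 in all 62 libraries, Tyr in 58 and Sox10 in 24, while Dct, at up to 23.8 TPM, and Pmel, at up to 1.63 TPM, were at 0 in none. Pancreatic Ctrb1 reached at least 100 TPM in 9 libraries, and 12 passed either this limit or that of 10 TPM for muscle Acta1. Of the 8-week livers these were NCAC replicates 1 and 5 and Con replicates 2 and 4. Libraries within these limits also held such transcripts: CAC replicate 3 of 2 weeks had 231 TPM over the 12 acinar markers. The 5 adipocyte markers, which set no limit, summed to 6.31 to 123 TPM in CAC livers, 7.91 to 1109 TPM in NCAC livers and 11.5 to 439 TPM in Con livers of 8 weeks. The part of melanocyte and adipocyte transcripts in the members' differences was not tested. Read depth is unknown, because TPM keeps none, and so no counting error can be given.

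Most changes among members were called at 8 weeks, and the called ones were then all lower in CAC livers. A gene was called at an adjusted p under 0.05 in the limma fit over all tested genes, and differences are of means of log2(TPM + 1). In CAC against Con, no member was called at 2 weeks, where 0.00822% of tested genes were, and none at 4 weeks, where 1.91% were (1.3% higher and 0.609% lower). At an unadjusted p under 0.05 there were 10 members at 2 weeks, all higher, and 3 at 4 weeks, against 10.7% and 12.9% of tested genes (3.40% and 5.10% higher). At 6 weeks 1 member rose and 1 fell, against 15.3% of tested genes called (5% higher and 10.3% lower). At 8 weeks 10 of 31 fell and none rose, against 41.2% of tested genes called (35.3% lower and 5.87% higher). The share of members called lower was thus close to that of all tested genes. The members' median difference was -0.32 and that of all tested genes -0.21.

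Against NCAC livers, CAC livers had no called member at 2 weeks (0% of tested genes called) or 4 weeks (1.27%). At 6 weeks 1 member rose and 3 fell, against 12.1% of tested genes called (6.55% higher and 5.54% lower). None of these 4 was called without the 9 libraries over the Ctrb1 limit, one of which is CAC replicate 1 of 6 weeks, and 5.24% of tested genes were then called higher and 3.50% lower. At 8 weeks 9 of 31 fell and none rose, against 48.2% of tested genes called (43.1% lower and 5.09% higher), and the member median of -0.26 equalled that of all tested genes at this precision. No member was called in NCAC against Con at any week, where 0%, 0%, 0% and 0.181% of tested genes were called at 2, 4, 6 and 8 weeks (0.0247% higher and 0.156% lower at 8 weeks). At an unadjusted p under 0.05 the limma fit had 12, 0, 2 and 0 members there, against 10.7%, 7.68%, 8.997% and 10.9% of tested genes. In CAC against NCAC it had 2 and 4 at 2 and 4 weeks, against 14.6% and 10.2%. Without the 12 libraries over either limit, 1 member rose and 7 fell in CAC against Con at 8 weeks, where 5.07% of tested genes were called higher and 34.8% lower. Against NCAC 1 rose and 5 fell, where the shares were 5.72% and 28.4%.

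Library scaling bears on every direction at 8 weeks. With TPM rescaled by the median of ratios, the median of all tested genes in CAC against Con moved to -0.00, against -0.21 as deposited, a shift of the whole table. The members then split into 4 higher and 5 lower, against 0 and 10 as deposited, and those 5 were all among the 10. Of all tested genes 12.8% were then called higher and 13.9% lower. The 5 were Sc5d, Scap, Acat2, Insig1 and Abcg8, and the 4 higher were Ggps1, Insig2, Abca1 and Lcat. Against NCAC the same rescaling gave 3 higher (Sqle, Abca1 and Lcat) and 3 lower (Sc5d, Scap and Insig1), beside 12.3% and 13.0% of tested genes. Quantile normalization gave 5 higher and 4 lower against Con, beside 14.7% and 13.4%, and 5 higher and 2 lower against NCAC, beside 14.0% and 13.2%. At 6 weeks rescaling gave 3 higher and 1 lower against Con, beside 8.50% and 5.82%. Quantile normalization gave 3 higher and 2 lower against NCAC at that week, beside 8.57% and 7.32%. Values after rescaling are given below wherever a call ended.

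**Figure D1:**
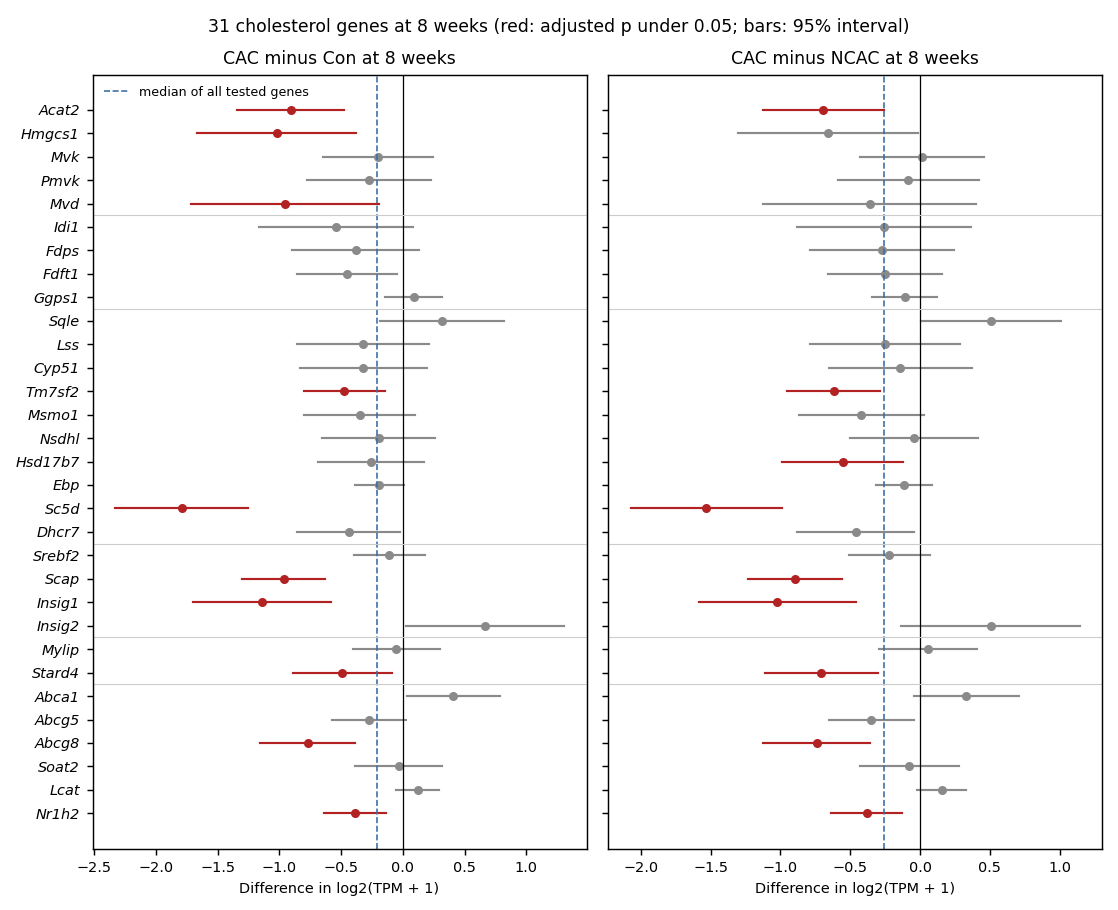
Difference in log2(TPM + 1) at 8 weeks for the 31 members, CAC minus Con at left and CAC minus NCAC at right, with 95% intervals. Red marks an adjusted p under 0.05, the dashed line is the median of all tested genes, and grey lines part the roles in the pathway. Sc5d lies farthest to the left in both panels, at -1.79 and -1.53, and no red interval lies right of 0.

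Of the 5 genes of the mevalonate steps, 3 fell in CAC against Con at 8 weeks and 2 were not called. Hmgcs1 ranged from 116 to 437 TPM in the 7 CAC livers with a median of 218, against 1004, 302, 223, 274 and 484 TPM in NCAC livers and 788, 421, 355, 518 and 516 TPM in Con livers. The 5 CAC livers with the least were below every Con liver, while the other 2 lay among them, and 1 NCAC liver stood above all others. The difference from Con was -1.02 ± 0.32 (SE, adjusted p = 0.00932), and from NCAC -0.66 ± 0.32 (adjusted p = 0.0832), which was not called. After rescaling the difference from Con was -0.77 (adjusted p = 0.0537). Against NCAC it was called without CAC replicate 4 (-0.80, adjusted p = 0.0414), CAC replicate 5 (-0.78, adjusted p = 0.0492) or NCAC replicate 3 (-0.86, adjusted p = 0.0352), while without the 12 libraries over either limit it was -0.10 (adjusted p = 0.847).

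Acat2, the cytosolic thiolase that joins acetyl-CoA units, has a close copy, Acat3, beside it, and how reads were shared between them is not given in the sources used here. Its level ran from 22.5 to 101 TPM in CAC livers with a median of 47.7, against 141, 74.8, 60.6, 79.0 and 92.9 TPM in NCAC livers and 105, 99.6, 93.5, 94.6 and 109 TPM in Con livers. Only CAC replicate 3 reached the range of Con. Acat2 fell by 0.91 ± 0.22 against Con (adjusted p = 0.000706) and by 0.69 ± 0.22 against NCAC (adjusted p = 0.00733). The call against NCAC ended after rescaling (-0.39, adjusted p = 0.153) and without NCAC replicate 1 (-0.52, adjusted p = 0.0585).

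Mvd, which decarboxylates mevalonate diphosphate, spread the most among the mevalonate genes, with 7.34 to 60.9 TPM and a median of 25.4 in CAC livers. It had 67.4, 22.6, 22.6, 21.0 and 43.2 TPM in NCAC livers and 49.5, 60.8, 35.3, 47.4 and 51.8 TPM in Con livers. In 4 CAC livers it was below all Con livers, and in the other 3 it was within or above their range. It fell by 0.95 ± 0.38 against Con (adjusted p = 0.0391), a call that rested on most of the libraries. It ended at -0.69 to -0.96 without any 1 of CAC replicates 1, 2 and 6 or Con replicates 1, 2, 4 and 5, and after rescaling it stood at -0.71 (adjusted p = 0.158). The kinases Mvk (-0.20 ± 0.22) and Pmvk (-0.27 ± 0.25) were not called, with 95% intervals from -0.65 to 0.25 and from -0.78 to 0.23.

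In the fit to the values as deposited, none of the 4 genes of the isoprenoid steps was called at 8 weeks in CAC against Con, NCAC against Con or CAC against NCAC. Idi1, which interconverts the first isoprenoid units, was at -0.54 against Con. The farnesyl diphosphate synthase Fdps was at -0.38 and the squalene synthase Fdft1 at -0.45 (adjusted p = 0.0680). Ggps1, which makes the geranylgeranyl chain used outside sterol synthesis, was at 0.09, and after rescaling it was called higher than in Con (0.28, adjusted p = 0.0375). Their spread among the 7 CAC livers was wide: Idi1 averaged 169.8 ± 94.4 TPM in CAC livers, 199 ± 126 TPM in NCAC livers and 225 ± 70.1 TPM in Con livers (SD, n = 7, 5 and 5).

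Of the 10 enzymes from squalene to cholesterol, 2 fell against Con at 8 weeks and 3 fell against NCAC. Sc5d, which places the C5 double bond of the sterol ring, showed the largest difference of all members in both. It had 54.7 to 289 TPM in CAC livers with a median of 98.1, against 441, 324, 233, 331 and 392 TPM in NCAC livers and 575, 331, 361, 415 and 375 TPM in Con livers. Every CAC liver was below every Con liver, and all but replicate 3 were below every NCAC liver. Sc5d fell by 1.79 ± 0.27 against Con (adjusted p = 7.64e-07) and by 1.53 ± 0.27 against NCAC (adjusted p = 1.05e-05), or to 0.289 and 0.346 of their level.

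The fall of Sc5d was already called at 6 weeks. CAC livers then had 112, 234, 221, 163 and 161 TPM, NCAC livers 225, 436, 389, 338 and 399 TPM, and Con livers 541, 321, 433, 416 and 358 TPM. The CAC values lay below all Con values and overlapped NCAC in 1 liver of each. The difference was -1.24 ± 0.29 from Con (adjusted p = 0.00217) and -1.01 ± 0.29 from NCAC (adjusted p = 0.0133). At 4 weeks it was -0.97 ± 0.29 from Con (adjusted p = 0.0706), which was not called, and at 2 weeks it was 0.24. After rescaling the value at 4 weeks was called (-0.91, adjusted p = 0.0484). The 6-week call against NCAC ended without the libraries over the Ctrb1 limit, and also without CAC replicate 1 of 6 weeks alone.

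Tm7sf2, a sterol C14 reductase, had 31.9 to 94.6 TPM in CAC livers with a median of 44.8. It had 112, 68.0, 69.9, 66.1 and 85.6 TPM in NCAC livers and 60.2, 91.6, 63.3, 75.5 and 68.4 TPM in Con livers. CAC replicate 3 was above every Con liver, while 4 of the other 6 were below all of them. The difference was -0.47 ± 0.16 from Con (adjusted p = 0.0176) and -0.62 ± 0.16 from NCAC (adjusted p = 0.00186). After rescaling these were -0.23 (adjusted p = 0.278) and -0.32 (adjusted p = 0.125), and the call against Con also ended without CAC replicate 1 (-0.37, adjusted p = 0.0709) or Con replicate 2 (-0.38).

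Hsd17b7, the ketosteroid reductase of the C4 demethylation complex, had 22.3 to 37.4 TPM in CAC livers with a median of 28.3. NCAC livers had 70.9, 32.8, 38.9, 38.0 and 36.4 TPM and Con livers 48.6, 18.8, 27.0, 34.1 and 50.8 TPM. Only NCAC replicate 1 stood clear of the rest. Hsd17b7 fell by 0.56 ± 0.21 against NCAC (adjusted p = 0.0287) and was not called against Con (-0.26, adjusted p = 0.349). The call ended after rescaling (-0.26, adjusted p = 0.370) and without NCAC replicate 1 (-0.37, adjusted p = 0.176), CAC replicate 1 (-0.51) or CAC replicate 3 (-0.50, adjusted p = 0.0529).

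The other 7 enzymes of this stretch were not called at 8 weeks against either arm. Sqle, the squalene epoxidase, was the only one with a positive difference from Con. It had 38.3 to 103 TPM in CAC livers with a median of 62.6, against 87.9, 31.4, 33.3, 37.7 and 46.2 TPM in NCAC livers and 57.6, 41.3, 37.6, 45.8 and 77.2 TPM in Con livers. The difference was 0.51 ± 0.25 from NCAC (adjusted p = 0.0852) and 0.32 ± 0.25 from Con (adjusted p = 0.315). After rescaling it was 0.81 from NCAC (adjusted p = 0.0126). Lss, Cyp51, Msmo1, Nsdhl, Ebp and Dhcr7 lay between -0.19 and -0.44 against Con.

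Because Sqle and Hmgcs1 parted, their log2 ratio within each liver was compared, a ratio from which a scaling common to a library largely cancels. This pair and 2 others below were chosen after their values were seen. A p-value would not allow for that choice, so the ratios are described without one. Sqle minus Hmgcs1 averaged -1.96 ± 0.43 in CAC livers, -3.13 ± 0.34 in NCAC livers and -3.29 ± 0.38 in Con livers (SD, n = 7, 5 and 5). All 7 CAC livers were above every liver of both other arms.

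**Figure D2:**
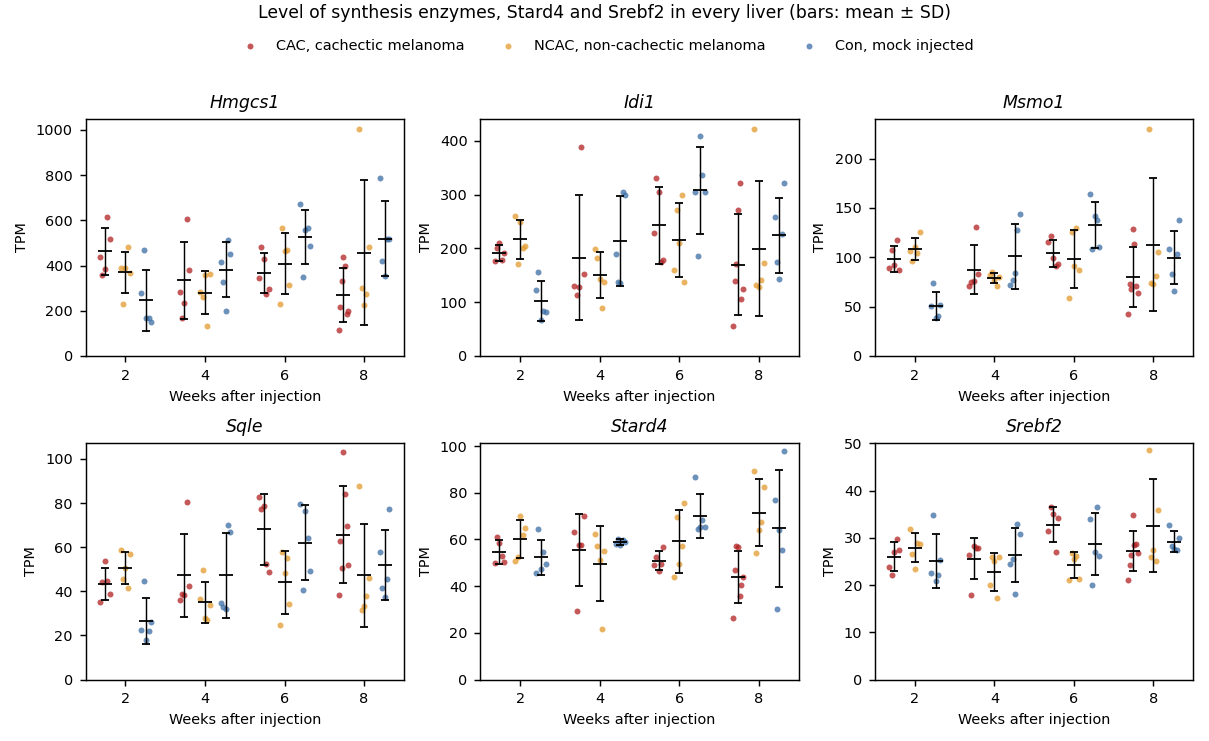
TPM of 4 synthesis enzymes, Stard4 and Srebf2 in each of the 62 livers by week, CAC left, NCAC middle and Con right, with mean ± SD as black bars. At 2 weeks the Con points of Idi1 and Msmo1 lie below those of both tumour arms, and at 8 weeks 1 NCAC liver is the highest for Hmgcs1, Idi1, Msmo1 and Srebf2.

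Of the 4 genes of sterol sensing, Scap and Insig1 fell and Srebf2 and Insig2 were not called at 8 weeks. Scap, the escort of SREBP2, had 23.1 to 48.9 TPM in CAC livers with a median of 29.5, against 63.5, 54.9, 45.7, 48.1 and 87.0 TPM in NCAC livers and 69.8, 55.5, 69.1, 55.4 and 56.8 TPM in Con livers. Every CAC liver was below every Con liver, and only replicate 3 reached the NCAC range. Scap fell by 0.96 ± 0.17 against Con (adjusted p = 1.02e-05) and by 0.90 ± 0.17 against NCAC (adjusted p = 2.54e-05).

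At 6 weeks Scap had 31.4, 44.8, 27.5, 37.3 and 31.3 TPM in CAC livers, 56.6, 51.8, 50.9, 46.9 and 44.4 TPM in NCAC livers and 38.4, 30.3, 39.2, 43.3 and 51.3 TPM in Con livers. It fell by 0.54 ± 0.18 against NCAC (adjusted p = 0.0376) but was not called against Con (-0.23). The call against NCAC ended without the libraries over the Ctrb1 limit, and also without CAC replicate 1 of 6 weeks alone.

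Insig1, the retention protein whose own gene is a target of SREBP2, had 42.8 to 212 TPM in CAC livers with a median of 96.8 at 8 weeks. NCAC livers had 234, 210.1, 185, 182 and 218 TPM and Con livers 249, 214, 171, 229 and 262 TPM. In 6 of the 7 CAC livers it was below every liver of both other arms, and CAC replicate 5 was the exception. Insig1 fell by 1.14 ± 0.28 against Con (adjusted p = 0.00101) and by 1.02 ± 0.28 against NCAC (adjusted p = 0.00249).

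Insig2, the second retention protein, whose liver transcript answers to other signals than Insig1, had 76.5 to 304 TPM in CAC livers with a median of 171. It had 95.7, 182, 183, 88.1 and 81.3 TPM in NCAC livers and 171, 173, 95.3, 125 and 36.4 TPM in Con livers. The groups overlapped, and the differences of 0.51 ± 0.32 from NCAC (adjusted p = 0.184) and 0.67 ± 0.32 from Con (adjusted p = 0.0867) were not called. The difference from Con was called after rescaling (0.92, adjusted p = 0.0307) and without the 12 libraries over either limit (0.99, adjusted p = 0.0307). Insig2 has several transcripts, which these gene totals do not separate.

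Within each liver, Insig2 minus Insig1 averaged 0.74 ± 1.28 on the log2 scale in CAC livers, -0.79 ± 0.64 in NCAC livers and -1.07 ± 1.00 in Con livers (SD, n = 7, 5 and 5). It was above all NCAC livers in 5 CAC livers and above all Con livers in 6.

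Srebf2 itself had 21.0 to 34.8 TPM in CAC livers with a median of 26.8, against 48.6, 26, 27.3, 25.1 and 35.9 TPM in NCAC livers and 32.7, 28.2, 27.7, 27.5 and 29.9 TPM in Con livers. Of the 7 CAC livers, 4 were below every Con liver, 1 was above every Con liver and 2 lay within their range. Its difference was -0.11 ± 0.14 from Con (95% interval -0.40 to 0.18) and -0.22 ± 0.14 from NCAC (95% interval -0.51 to 0.07), and rescaling turned both signs, to 0.13 and 0.08. At 6 weeks all 5 CAC livers, at 31.5, 36.4, 35.0, 26.9 and 34.1 TPM, were above all 5 NCAC livers, at 21.2, 26.8, 25.5, 26.2 and 21.3 TPM, as were 5.90% of tested genes. That difference of 0.42 ± 0.16 was not called (adjusted p = 0.0645), and after rescaling it was (0.46, adjusted p = 0.0159).

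**Figure D3:**
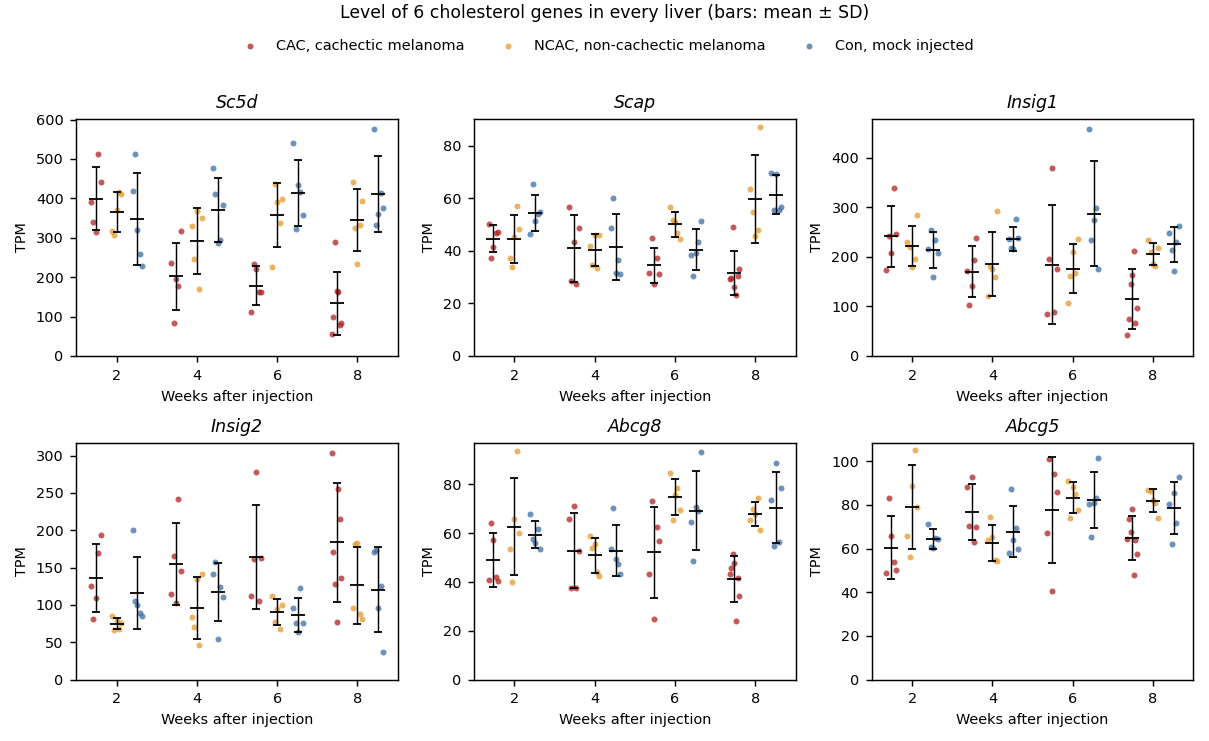
TPM of the sterol desaturase Sc5d, the sensing genes Scap, Insig1 and Insig2 and the biliary pump genes Abcg8 and Abcg5 in each of the 62 livers by week, CAC left, NCAC middle and Con right, with mean ± SD as black bars. At 8 weeks all 7 CAC points of Sc5d, Scap and Abcg8 are below all Con points, while those of Insig2 and Abcg5 overlap them.

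Stard4, which carries sterol between membranes inside the cell, had 26.6 to 57.2 TPM in CAC livers with a median of 43.7. NCAC livers had 89.2, 54.1, 64.0, 67.4 and 82.7 TPM and Con livers 76.8, 30.1, 63.8, 55.5 and 97.7 TPM. The CAC range overlapped both, and it overlapped Con through replicates 2 and 4, the 2 Con libraries over the Ctrb1 limit. Stard4 fell by 0.71 ± 0.20 against NCAC (adjusted p = 0.00341) and by 0.49 ± 0.20 against Con (adjusted p = 0.0441). After rescaling the differences were -0.40 (adjusted p = 0.0735) and -0.25 (adjusted p = 0.296). The call against Con also ended, at -0.32 to -0.52, without any 1 of CAC replicates 1, 5, 6 and 7 or Con replicates 1, 3, 4 and 5, and it was -0.86 (adjusted p = 0.000604) without the libraries over either limit.

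At 6 weeks every CAC liver, at 48.9, 52.4, 46.4, 49.6 and 56.9 TPM of Stard4, was below every Con liver, at 86.7, 64.5, 65.5, 68.3 and 65.4 TPM. The same held for Sc5d, and 10% of tested genes stood wholly below Con in this way. The fitted difference of -0.45 for Stard4 was not called. Mylip, the ubiquitin ligase that degrades lipoprotein receptors, was among the lowest members. It had 2.90 to 8.15 TPM in CAC livers with a median of 7.32, against 7.71, 3.86, 5.61, 5.20 and 6.96 TPM in NCAC livers and 5.49, 4.74, 6.84, 6.57 and 8.15 TPM in Con livers. These ranges coincided, and the difference was 0.06 ± 0.18 from NCAC and -0.05 ± 0.18 from Con, which became 0.17 after rescaling.

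Among the 6 genes of efflux and esterification, Abcg8 and Nr1h2 fell against both arms at 8 weeks. Abcg8 had 23.9 to 51.6 TPM in CAC livers with a median of 43.4, against 65.3, 70.0, 68.1, 74.5 and 61.3 TPM in NCAC livers and 73.8, 54.7, 88.6, 56.5 and 78.4 TPM in Con livers. All 7 CAC livers were below all 10 others, as 14.0% of tested genes were against NCAC and 6.09% against Con. It was the only member wholly below NCAC, while Sc5d and Scap joined it below Con. Abcg8 fell by 0.74 ± 0.19 against NCAC (adjusted p = 0.00147) and by 0.77 ± 0.19 against Con (adjusted p = 0.00114), and after rescaling the difference from NCAC was -0.44 (adjusted p = 0.0658). At 6 weeks Abcg8 was also called lower than in NCAC (-0.59) but not lower than in Con. That call ended without the libraries over the Ctrb1 limit.

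Abcg5, its partner in the biliary pump, had 48.1 to 78.1 TPM in CAC livers with a median of 64.2, against 86.9, 86.3, 82.1, 80.8 and 74.1 TPM in NCAC livers and 80.4, 62.1, 85.7, 71.6 and 92.7 TPM in Con livers. The arms overlapped, and the differences of -0.35 ± 0.15 from NCAC (adjusted p = 0.0523) and -0.27 ± 0.15 from Con (adjusted p = 0.142) were not called. Within each liver Abcg8 minus Abcg5 averaged -0.66 ± 0.18 in CAC livers, -0.27 ± 0.10 in NCAC livers and -0.17 ± 0.14 in Con livers (SD, n = 7, 5 and 5). All 7 CAC livers were below all Con livers, while 1 reached into the NCAC range. The annotated spans of both genes overlap on opposite strands, and the strand setting of the authors' counting is not given in the sources used here.

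Nr1h2, the sterol-sensing nuclear receptor LXR beta, had 14.3 to 24.5 TPM in CAC livers with a median of 17.1, against 23.8, 21.8, 26.3, 18.0 and 25.5 TPM in NCAC livers and 20.6, 28.0, 24.3, 23.2 and 19.3 TPM in Con livers. All but CAC replicate 3 were below every Con liver. Nr1h2 fell by 0.38 ± 0.13 against NCAC (adjusted p = 0.0106) and by 0.39 ± 0.13 against Con (adjusted p = 0.0118). After rescaling these were -0.09 (adjusted p = 0.605) and -0.15 (adjusted p = 0.350), and the call against Con ended without Con replicate 2 (-0.32, adjusted p = 0.0518).

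Lcat, which esterifies cholesterol on plasma lipoproteins, was the only member called higher at any week in the fit over all groups to the values as deposited. At 6 weeks it had 675, 764, 783, 674 and 737 TPM in CAC livers, against 600.0, 588, 651, 589.9 and 578 TPM in NCAC livers and 603, 609.9, 623, 574 and 593 TPM in Con livers. All CAC livers were above all livers of the other arms, as were 5.90% of tested genes against NCAC and 3.82% against Con. The rise was 0.27 ± 0.09 against both NCAC (adjusted p = 0.0492) and Con (adjusted p = 0.0413). The call against NCAC ended after rescaling (0.31, adjusted p = 0.0556) and without the libraries over the Ctrb1 limit. That against Con ended without the libraries over either limit (0.27, adjusted p = 0.147). At 8 weeks Lcat was not called, at 0.15 and 0.12, but after rescaling it was 0.46 against NCAC (adjusted p = 0.000559) and 0.37 against Con (adjusted p = 0.00530).

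The cellular cholesterol pump Abca1 had 26.9 to 42.9 TPM in CAC livers with a median of 38.0 at 8 weeks, against 27.0, 27.9, 23.6, 32.0 and 32.5 TPM in NCAC livers and 40.0, 13.5, 29.1, 22.9 and 38.4 TPM in Con livers. The low Con value of 13.5 TPM was that of replicate 2. The difference from NCAC was 0.33 ± 0.19 and from Con 0.41 ± 0.19 (adjusted p = 0.0742), and after rescaling 0.63 (adjusted p = 0.00550) and 0.65 (adjusted p = 0.00381). Without the libraries over either limit it was 0.02 from Con. Soat2, the acyltransferase that stores cholesterol as ester in hepatocytes, was at -0.08 against NCAC and -0.03 against Con.

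**Figure D4:**
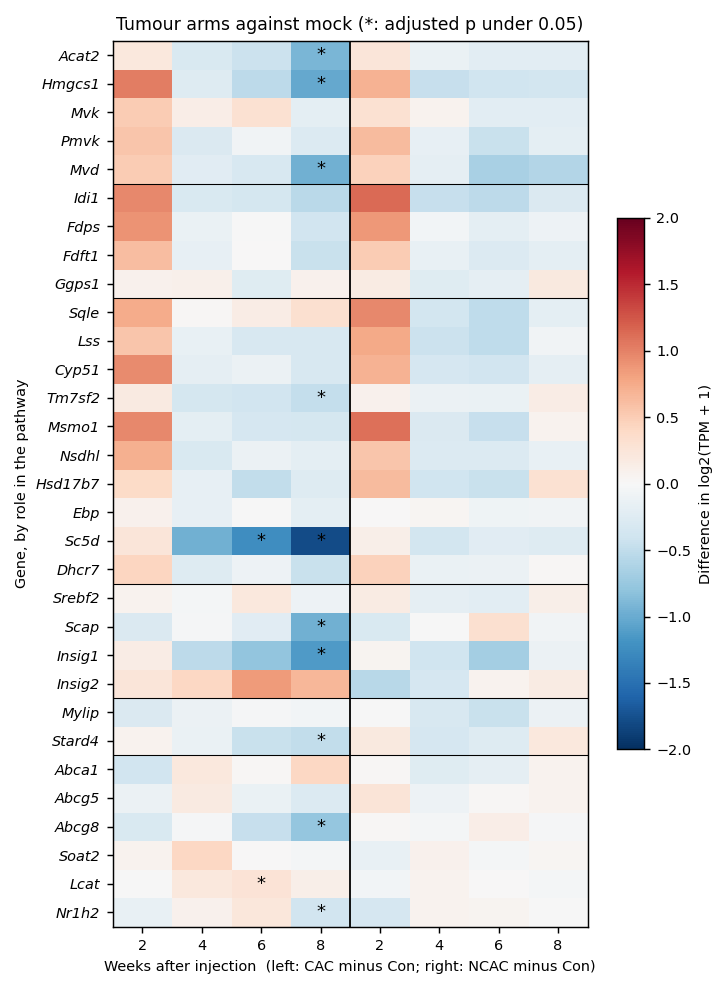
Difference in log2(TPM + 1) from Con by week for each member, CAC at left and NCAC at right, in red where higher than Con and in blue where lower. Stars mark an adjusted p under 0.05. Stars occur in the CAC columns of 6 and 8 weeks and nowhere in the NCAC columns.

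The 7 CAC livers of 8 weeks did not move together. Among the 19 synthesis enzymes, replicates 1, 2, 6 and 7 had 16, 13, 12 and 16 below the lowest Con liver, where 51.2%, 37.7%, 46.1% and 32.4% of all tested genes were. Replicates 3, 4 and 5 had 2 each below it, against 15.5%, 39.04% and 39.5% of tested genes. They had 3, 9 and 7 above the highest Con liver, against 11.7%, 9.77% and 8.91%. Sc5d was below every Con liver in all 7, so its fall was shared by livers whose other synthesis enzymes were high and by livers where they were low.

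The NCAC livers of 8 weeks also spread. NCAC replicate 1, a library over the Acta1 limit, had 16 of the 19 above the highest Con liver, against 28.9% of tested genes. NCAC replicates 2, 3, 4 and 5 had 13, 11, 6 and 1 below the lowest, against 17.3%, 14.3%, 23.0% and 5.14%. Low synthesis transcripts in single livers were therefore not limited to the CAC arm.

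Clock transcripts differed among the same livers, and collection times are not labelled. Nr1d1, a clock repressor, had 25.6, 15.4, 51.4, 3.04, 0.872, 7.43 and 9.74 TPM in CAC replicates 1 to 7. It had 21.0, 86.6, 50.6, 18.6 and 67.8 TPM in NCAC replicates 1 to 5 and 78.9, 70.2, 75.5, 66.0 and 13.7 TPM in Con replicates 1 to 5. The 2 CAC livers with the least Nr1d1, replicates 4 and 5, were the 2 with the most synthesis enzymes above Con. Replicates 6 and 7 had the next least Nr1d1, and 12 and 16 of their 19 synthesis enzymes were below the lowest Con liver. Replicate 3, with the most Nr1d1 of the CAC livers, had 3 above and 2 below. The shares of tested genes beside these counts are given above. Nr1d1 fell by 2.32 ± 0.71 against Con (adjusted p = 0.00705) and by 1.99 ± 0.71 against NCAC (adjusted p = 0.0177). It is 1 of 16 clock genes tested, and the only one called lower than in Con. Of the others 1 was called higher and 14 were not called. The differences of the 16 from Con were positive in 8 and negative in 8. Beside these, 35.3% of tested genes were called lower and 5.87% higher. Against NCAC 7 of the 16 were called lower and 0 higher, beside 43.1% and 5.09% of tested genes. The part of clock phase in the members' differences was not tested.

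**Figure D5:**
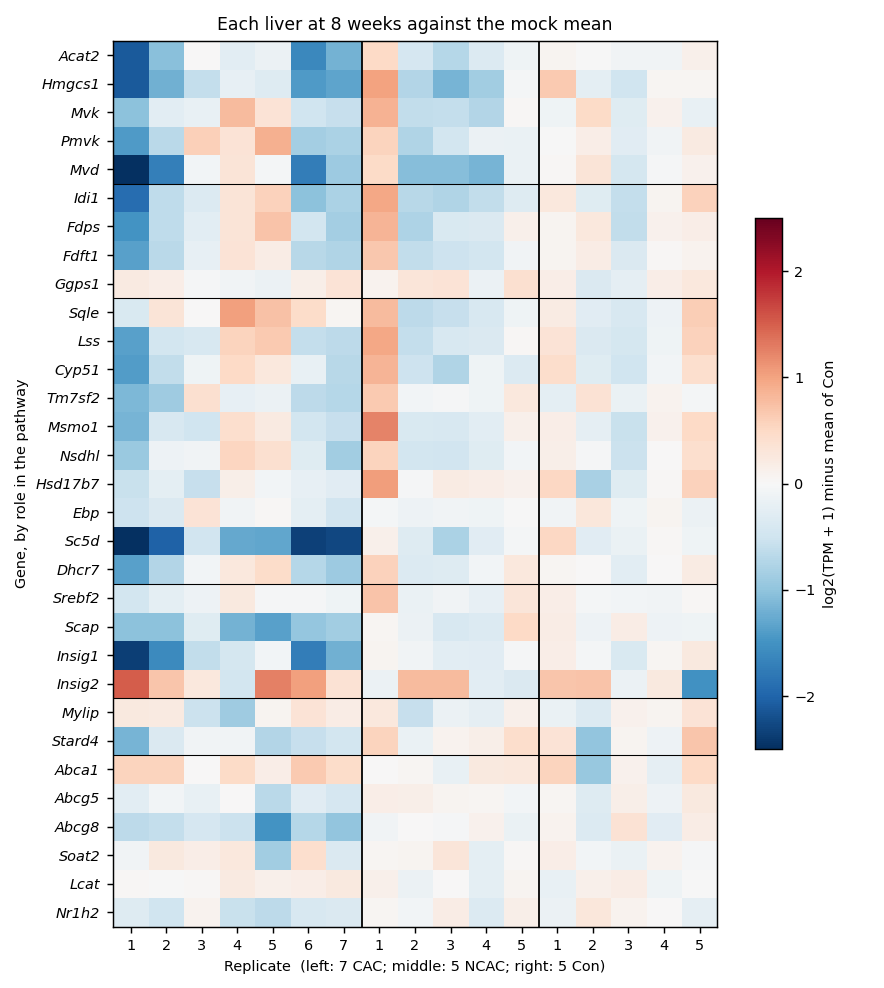
Each of the 17 livers of 8 weeks as a column, with CAC replicates 1 to 7 at left, NCAC 1 to 5 in the middle and Con 1 to 5 at right, and each member as a row. Colour is log2(TPM + 1) minus the mean of Con. CAC replicates 1, 2, 6 and 7 are blue over most synthesis rows, CAC replicates 4 and 5 and NCAC replicate 1 are red over many of them, and the Sc5d row is blue in all 7 CAC columns.

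Markers of other liver cells also differed at 8 weeks. The 8 Kupffer cell and macrophage markers summed to 120 to 548 TPM in CAC livers, 231 to 371 TPM in NCAC livers and 435 to 696 TPM in Con livers. The 5 cholangiocyte markers summed to 46.0 to 72.9 TPM in CAC livers, 16.5 to 38.7 TPM in NCAC livers and 33.1 to 42.9 TPM in Con livers. Over the 62 libraries Spp1 reached 68.9 TPM, but Krt19, Sox9, Epcam and Krt7 at most 4.12, 2.89, 2.70 and 0.508 TPM. Most of the cholangiocyte sum in CAC livers was thus Spp1. None of these 13 markers was at 0 in any library, and their part in the members' differences was not tested. In bulk tissue, fewer cells of a type and less RNA per cell cannot be told apart.

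At 2 weeks all 19 synthesis genes had a positive difference from Con in both tumour arms, and the median over all 31 members was 0.24 in CAC and 0.24 in NCAC, against -0.07 and -0.04 over all tested genes. Both comparisons share the same 5 Con livers. Msmo1, the C4 methyl oxidase, had 89.5, 107, 92.2, 117 and 86.8 TPM in CAC livers, 106, 96.0, 110.2, 104 and 125 TPM in NCAC livers and 50.2, 73.7, 38.4, 40.6 and 51.5 TPM in Con livers. Con replicate 2 was the highest of its group and still below every tumour-bearing liver.

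Idi1 had 176, 200.3, 210.3, 179 and 192 TPM in CAC livers, 259.6, 171, 249, 202 and 205 TPM in NCAC livers and 124, 156, 66.8, 83.0 and 82.3 TPM in Con livers. Neither gene was called: Msmo1 stood at 0.97 ± 0.24 in CAC (adjusted p = 0.180) and 1.11 ± 0.24 in NCAC (adjusted p = 0.154), and Idi1 at 0.96 and 1.13. Groups did not overlap for 4 members above Con in CAC (Idi1, Cyp51, Msmo1 and Nsdhl; 2.08% of tested genes, with 4.91% wholly below) and for 3 in NCAC (Idi1, Msmo1 and Hsd17b7; 1.28%). When only the 3 groups of this week were fitted, 9 members were called in each of these comparisons, all higher. Of all tested genes 1.37% were then called higher and 4.56% lower in CAC, and 0.609% higher and 2.41% lower in NCAC.

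Con livers of 8 weeks were above Con livers of 2 weeks for 26 of the 31 members, with none called, against 0.296% of tested genes called (0.271% higher and 0.0247% lower). At an unadjusted p under 0.05 there were 11, all higher, against 10.1% of tested genes (8.24% higher). Hmgcs1 differed by 1.16 ± 0.35 (adjusted p = 0.129), Idi1 by 1.14 ± 0.34 (adjusted p = 0.122) and Msmo1 by 0.95 ± 0.24 (adjusted p = 0.0596).

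Over the 4 weeks, the difference between CAC and Con sloped downward for 10 members and upward for none, against 15.7% of tested genes called (12.3% down and 3.35% up). The slope, per step of 2 weeks, was -0.64 ± 0.13 for Sc5d (adjusted p = 0.00036) and -0.64 ± 0.15 for Hmgcs1 (adjusted p = 0.00236). Idi1, Fdps, Fdft1, Cyp51, Msmo1, Acat2, Scap and Insig1 lay between -0.22 and -0.46. The slope of NCAC minus Con uses the same Con livers, and there Idi1 was at -0.43 ± 0.15 and Msmo1 at -0.33 ± 0.11, neither called (adjusted p = 0.431 each; 0% of tested genes called). Without CAC replicate 1 of 8 weeks or Con replicate 3 of 2 weeks 6 members were called, and without the libraries over the Ctrb1 limit 4, of which 3 were among the 10. Of tested genes that omission left 5.56% called downward and 1.87% upward. Rescaling gave 4 members downward and 1 upward, beside 5.57% of tested genes each way, and quantile normalization 2 and 2, beside 4.79% and 6.71%.

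Set against NCAC, where no Con liver enters, the slope of CAC was downward for 5 members, against 28.5% of tested genes called (24.2% down and 4.38% up). They were Sc5d (-0.54 ± 0.13, adjusted p = 0.00148), Scap (-0.33 ± 0.08, adjusted p = 0.00176), Insig1 (-0.34), Tm7sf2 (-0.22) and Nr1h2 (-0.15). After rescaling 2 of these 5, Sc5d and Scap, were called, and Sqle, Abca1 and Lcat sloped upward, beside 7.99% of tested genes downward and 8.50% upward. Quantile normalization gave 2 downward and 4 upward, beside 8.88% and 9.23%. Without the libraries over either limit no member sloped downward and 1 upward, beside 11.1% and 4.22%.

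Of 30 further sterol genes, 29 were tested. In CAC against Con at 8 weeks 14 of them fell and 2 rose, beside 35.3% of tested genes called lower and 5.87% higher. The median difference of these 29 was -0.45, against -0.32 for the members and -0.21 for all tested genes. The hepatic lipase Lipc fell by 2.27 ± 0.26 (adjusted p = 1.76e-09), with 51.9 ± 45.2 TPM in CAC livers, 174 ± 30.1 TPM in NCAC livers and 204 ± 23.6 TPM in Con livers (SD, n = 7, 5 and 5). The phospholipid acyltransferase Lpcat3 fell by 1.00 ± 0.15 (adjusted p = 1.35e-06), Cyp27a1, the sterol 27-hydroxylase of bile acid synthesis, by 0.76 ± 0.15, and Pltp, the plasma phospholipid transfer protein, by 1.06 ± 0.22. Aacs, which activates acetoacetate for lipid synthesis, fell by 1.46, the mitochondrial thiolase Acat1 by 0.62 and Nr1h3, the other LXR, by 0.43. Against NCAC 14 fell and none rose, beside 43.1% of tested genes called lower and 5.09% higher. The genes named here were taken by smallest p against Con, and the 2 that rose are not among them. Differences of these further genes after rescaling are not given.

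Levels differed widely among members. By the median over 62 libraries Lcat was highest at 646 TPM, followed by Hmgcs1 at 366, Sc5d at 326 and Insig1 at 208 TPM, and Ggps1 was lowest at 3.17 TPM. The highest library exceeded the lowest by 10.7 times for Insig1, 10.5 times for Sc5d and 9.18 times for Mvd, but by 1.67 times for Lcat and 1.84 times for the sterol isomerase Ebp. Fdps, with a median of 208 TPM and 87.1 to 448 TPM, could not be set apart from Insig1, at 42.8 to 457 TPM.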

How the data were processed

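Poly(A) RNA of 62 livers was prepared with a stranded TruSeq kit and sequenced on a NovaSeq, per the labels' protocols. The authors deposited 1 table of TPM per gene per library, and each library sums to 1e+06. The genome build was mm10, per the submitters' processing notes, and the aligner, quantifier and strand setting are not stated there. TPM holds no depth, so no count model was run. A gene entered the fit when 5 or more libraries reached 1 TPM (12160 of 47643), and was fitted on log2(TPM + 1) with limma 3.58.1 in R 4.3.3: 12 group means, empirical Bayes moderation with a trend, 16 comparisons, and Benjamini-Hochberg adjustment within each. A fold change on this scale understates the change of low genes. Replicates are labelled biological. Tools for levels and plots were Python 3.11.15, NumPy 2.4.6, SciPy 1.17.1, pandas 2.3.3 and matplotlib 3.10.9. The fit was tested on simulated data. Members and lists were chosen with earlier results of these data known. Values in each NCAC and Con library of 8 weeks, and the lowest, median and highest of the 7 CAC livers, are given for members called in CAC against Con or NCAC at 8 weeks, up to 12 by smallest p, and for Srebf2, Insig1 and Mylip; of the further sterol genes the 8 with the smallest p were to be named, of which 1 is not reported here. Other members' values were added after they were seen. Alternatives were another pseudocount, other filters, median-of-ratios rescaling, quantile normalization, robust moderation, fits within weeks or arms, a replicate block, clock covariates and libraries left out; leaving out libraries over a limit of Ctrb1 or Acta1 was chosen after the data were seen.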

Additional observations from a re-analysis of the deposited data

Results flagged for a closer look

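Single livers stood apart from the rest of their group in 9 of 156 groups of 5 or 7 livers of the members described by library, where chance gives about 1 in 20. CAC replicate 3 of 8 weeks was highest for Scap (48.9 TPM) and Nr1h2 (24.5 TPM). CAC replicate 2 of 4 weeks was lowest for Acat2 (43.5 TPM) and Srebf2 (17.8 TPM). NCAC replicate 4 of 4 weeks, which was over the Ctrb1 limit, was highest for Tm7sf2 (89.6 TPM) and lowest for Stard4 (21.7 TPM). NCAC replicate 1 of 8 weeks was highest for Hsd17b7 (70.9 TPM), Con replicate 1 of 6 weeks for Stard4 (86.7 TPM) and Con replicate 2 of 2 weeks for Mvd (59.8 TPM).

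The differences of CAC from Con and from NCAC changed over the weeks for some members, by the test of the slope per step of 2 weeks. Against Con the slope was -0.35 for Acat2, -0.64 for Hmgcs1, -0.46 for Idi1, -0.37 for Fdps, -0.30 for Fdft1, -0.37 for Cyp51, -0.41 for Msmo1, -0.64 for Sc5d, -0.22 for Scap and -0.41 for Insig1. Against NCAC it was -0.22 for Tm7sf2, -0.54 for Sc5d, -0.33 for Scap, -0.34 for Insig1 and -0.15 for Nr1h2. Only Sc5d, Scap and Insig1 were called in both. Of tested genes 12.3% were called downward against Con and 24.2% against NCAC.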

How the results depend on the processing

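TPM without depth, 5 to 7 livers a group and unlabelled collection times limit these results; calls near the threshold moved with single libraries. Sc5d and Scap at 8 weeks kept direction and call in both CAC comparisons under all 23 alternatives run for each, as did Acat2 and Insig1 against Con (adjusted p up to 0.0345 and 0.0167). Quantile normalization ended Abcg8 against Con (adjusted p = 0.0644) and Insig1 against NCAC (adjusted p = 0.0575). Clock covariates were taken within groups, so they changed the spread and not the differences.

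Counts of called members moved over 1.5 times as follows. Fits within the week gave 9 at 2 weeks in CAC against Con and 9 in NCAC against Con (0 in the fit over all groups), 1 in CAC against NCAC at 2 weeks (0) and 5 in CAC against Con at 6 weeks (2); fits within arms gave 2 for the slope of CAC minus NCAC (5). Rescaling gave 1 for CAC against Con at 4 weeks (0), 4 at 6 weeks (2) and 5 for its slope (10). Quantile normalization gave 4 and 4 for the last 2. At 6 weeks it left 9.54% of tested genes called higher and 6.68% lower against Con. Clock covariates gave 1 and 5 for CAC against Con at 4 and 6 weeks. They gave 4 for NCAC against Con and 1 for CAC against NCAC at 2 weeks, and 1 for Con at 8 against 2 weeks (0). Of tested genes 1.73% were then called higher and 1.00% lower for CAC against Con at 4 weeks, and 6.17% and 14.8% at 6 weeks. At 2 weeks the shares were 1.11% and 1.54% for NCAC against Con and 1.57% and 2.52% for CAC against NCAC. For Con at 8 against 2 weeks they were 0.387% and 0.0411%. With no filter the counts were 1 for CAC against Con and 1 against NCAC (4) at 6 weeks. They were 3 for the slope against NCAC and 1 for Con at 8 against 2 weeks. Beside these, 2.87% and 3.95% of genes were called higher and 4.47% and 2.55% lower at 6 weeks. The slope had 2.47% upward and 11.5% downward, and Con at 8 against 2 weeks 1.23% higher and 0.0531% lower. Mean correlations of deviations between libraries of 1 number were -0.028 to 0.019, against 0.00035 between libraries of different numbers. Such means cannot exclude pairing within a week. The replicate block gave 6 for CAC against Con at 8 weeks (10), 2 against NCAC at 6 weeks, and 3 and 2 for the slopes against Con and NCAC. Replicates 6 and 7 exist only among CAC livers of 8 weeks, so the block also took these 2 livers out of the differences. Of tested genes 6.54% were then called higher and 5.61% lower against NCAC at 6 weeks. The slopes against Con and NCAC had 2.57% and 3.34% upward and 8.99% and 19.5% downward. Without libraries over the Ctrb1 limit the counts were 0 for CAC against NCAC at 6 weeks and 4 for the slope against Con. Without those over the Ctrb1 or the Acta1 limit they were 1 and 0 for CAC against Con and NCAC at 6 weeks, and 4 and 1 for the slopes. At 6 weeks the latter omission left 3.87% of tested genes called higher and 3.53% lower against Con, and 5.76% and 3.66% against NCAC. Shares of tested genes called higher and lower moved under other settings as well. Fits within the week gave 6.29% and 18.2% for CAC against Con at 6 weeks and 2.71% and 4.98% for CAC against NCAC at 2 weeks. Fits within arms gave 4.14% and 21.4% for the slope against NCAC. For CAC against Con, rescaling gave 1.81% and 0.683% at 4 weeks and the replicate block 4.54% and 29.5% at 8 weeks. The cause of these moves was not tested.

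Leaving out 1 library gave 7 to 13 members in CAC against Con and 8 to 13 against NCAC at 8 weeks, 1 to 2 and 0 to 6 at 6 weeks, and 0 to 1 against Con at 4 weeks (1 without CAC replicate 5). At 6 weeks the count against Con was 1 without CAC replicates 1 or 5 or Con replicates 1 to 4. Against NCAC it was 0 without CAC replicate 1, 1 without CAC replicate 3 or NCAC replicates 1 or 2, and 2 without CAC replicate 5 or NCAC replicates 3 to 5. The slopes gave 6 to 14 against Con and 2 to 6 against NCAC, with 6 without CAC replicate 1 of 8 weeks or Con replicate 3 of 2 weeks and 2 without CAC replicate 2 of 8 weeks. The slope against NCAC gave 3 without CAC replicates 4 or 5 of 2 weeks, 1 or 5 of 4 weeks, 1 of 6 weeks or 1 or 6 of 8 weeks, or NCAC replicates 1 or 2 of 2 weeks, 1 of 4 weeks or 1 or 5 of 8 weeks. Con at 8 against 2 weeks gave 0 to 4, highest without Con replicate 3 of 8 weeks. The other counts stayed at 0 with every library left out. Shares of all tested genes were not kept for these fits, so the counts cannot be set beside them.

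Signs turned for members that were not called: Hsd17b7 against Con (0.020, quantile normalization), Srebf2 against Con (0.13 rescaled, 0.17 quantile) and NCAC (0.078, 0.10, and 0.042 without libraries over either limit), Mvd against NCAC (0.14, same omission) and Mylip against Con (0.17, 0.15) and NCAC (-0.070, replicate block). With 1 library left out Mylip ran from -0.14 to 0.087 against Con and from -0.061 to 0.20 against NCAC.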
